A study of Arabidopsis thaliana with 12 samples.

Results

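Seedlings carrying LEAFY-GR and sampled 8 h after a mock treatment were compared with untreated seedlings of Landsberg erecta, a laboratory accession of Arabidopsis thaliana. The comparison used the 2 arrays titled Mock and the 2 titled Landsberg erecta, 4 of the 12 arrays in the series, chosen by title and paired by the lot number in the labels. All seedlings were 9 day old, total RNA was measured on Affymetrix ATH1-type arrays, and lot 1 and lot 2 each held 1 array of every group. The remaining groups were untreated 35S::LFY seedlings and LEAFY-GR seedlings sampled 8 h after dexamethasone, cycloheximide or both, with 2 arrays each. Genotype and handling change together between mock-treated LEAFY-GR and Landsberg erecta, so the transgene, its parental background and the mock treatment cannot be told apart. The labels name neither the promoter that drives LEAFY-GR, nor the accession or line that carries it, nor what the mock solution held. Nothing there says that the seedlings behind a pair of arrays were grown apart, so the p-values reflect the spread among these arrays alone, and that spread may be technical.

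LEAFY is a plant transcription factor that turns shoot meristems into flowers by switching on floral genes such as those for the petal and stamen regulators. Fused to the hormone-binding domain of the glucocorticoid receptor (GR), it is held out of the nucleus until a steroid such as dexamethasone is added. A mock-treated fusion line is therefore the usual control for induction. Here it is set against untreated plants of another genotype. The series has no untreated LEAFY-GR seedlings, so the level from which this control starts is not shown. Whole seedlings respond within hours to handling, wetting, darkness and chemicals through calcium, jasmonate and sugar signals, and the genes of those responses are treated here by role. In bulk RNA of whole seedlings, fewer cells of a type and less RNA per cell cannot be told apart.

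The arrays' median signals lay between 49.8 and 69.4, the 2 mock arrays correlated at 0.973 and the 2 Landsberg erecta arrays at 0.978 on the log2 scale. The ratio of 3′ to 5′ signal at control probe sets, a sign of RNA integrity, was higher in Landsberg erecta than in mock in both lots for GAPDH (1.27 and 1.3 against 1.12 and 0.97 at its second pair) and ubiquitin (1.73 and 1.98 against 1.51 and 1.43). At the second actin pair the ratios were 1.98 and 2.25 against 1.75 and 1.63, while at the first actin pair lot 2 ran the other way (4.33 against 5.88). The part of RNA quality in the results was not tested. Neither LFY nor the 7 reported LEAFY targets of the gene lists was measured by a named probe set, and the labels were not checked against LFY itself.

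The transcriptomes differed widely. limma called 2267 of 22746 probe sets at an adjusted p under 0.05, 1085 higher in mock-treated LEAFY-GR (4.77% of those tested) and 1182 lower (5.2%). All 2267 differed in the same direction in both lots, and for 2266 the signals of the groups did not overlap. Both counts follow largely from calling on these same arrays and are no replication. The shares over all tested probe sets were not computed. A difference of at least 2-fold was measured for 594 of the higher and 543 of the lower probe sets. The upper tail was longer, with 159 probe sets at least 4-fold higher and 38 at least 4-fold lower, and with 36 and 5 at least 8-fold. These differences are on the scale of log2(signal + 10), which understates the change of dim probe sets. Both Landsberg erecta signals were below 10 for 47 of the higher probe sets, and both mock signals were below 10 for 76 of the lower. The share called grew with signal, from 1.85% to 22.6% between the lowest and the highest of 4 equal bins of mean signal.

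The split between directions depended on scaling. The median change of all probe sets was -0.09 log2 as deposited and 0.04 with arrays scaled to equal medians, a shift of 0.13, and the calls then became 1526 higher and 589 lower. Without mock replicate 1 there were 1213 calls, without mock replicate 2 there were 1172, without Landsberg erecta replicate 1 there were 1033 and without Landsberg erecta replicate 2 there were 906.

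**Figure D1:**
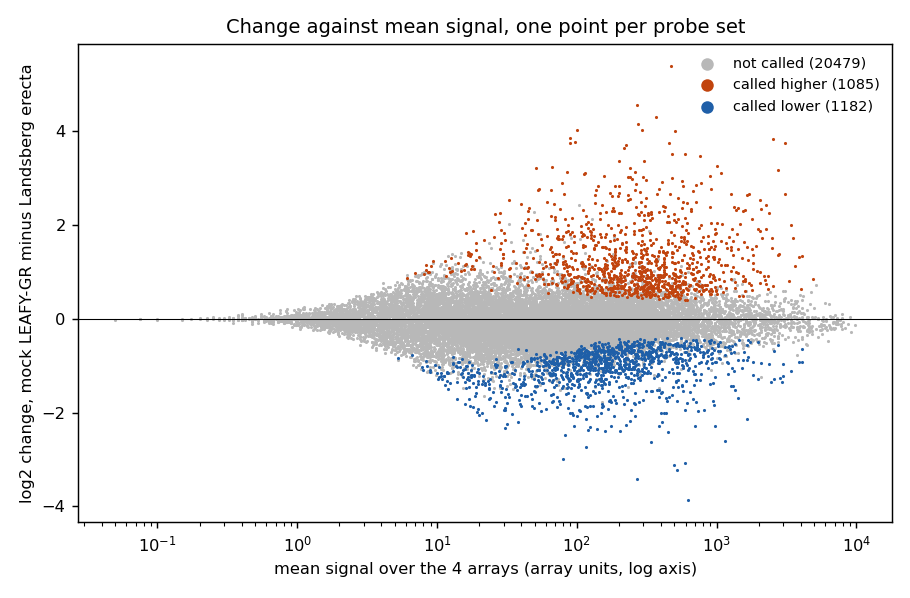
Log2 change between mock-treated LEAFY-GR and Landsberg erecta (vertical axis) against the mean signal over the 4 arrays (horizontal log axis), with 1 point per tested probe set. The 1085 probe sets called higher reach past 5 log2, while the 1182 called lower stay above -4.

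The gene lists and families, here and below, were chosen with earlier results of these data known, so their counts are a description. Each count stands beside 4.77% called higher and 5.2% called lower over all tested probe sets. Of these 22746, 5362 had an unadjusted p under 0.05 by limma. All 4 measured members of the touch and early stress list, out of 14 listed, were called higher, with a median of 1.67 log2. Their summed signal was 885.2 and 556.0 in mock against 106.3 and 145.1 in Landsberg erecta. STZ, a zinc-finger repressor induced by cold, salt and wounding, had 507 and 383 on the mock arrays and 37.4 and 39.1 on the Landsberg erecta arrays. Every mock signal was far above both Landsberg erecta signals, and the difference was 3.22 ± 0.17 log2 (estimate ± standard error of the fit, here and below; adjusted p = 1.14e-05). CML38, a calmodulin-like calcium sensor induced by wounding and low oxygen, had 183 and 50.6 against 8.4 and 20.2. Its difference of 2.20 ± 0.52 (adjusted p = 0.0254) was larger in lot 1 than in lot 2 and did not pass without mock replicate 1 (0.189) or Landsberg erecta replicate 1 (0.202). CML37, a related sensor, was dim on every array, at 24.1 and 7.3 against 0.5 and 1.4, a difference of 1.15 that did not pass without mock replicate 1 (0.175) or 2 (0.0574) or Landsberg erecta replicate 1 (0.206), or without the lot block (0.133). AR781 had 171 and 116 against 60 and 84.4, a difference of 0.89 that did not pass without mock replicate 1 (0.202) or Landsberg erecta replicate 1 (0.223). Within the calmodulin-like family as a whole, 3 of 7 measured probe sets were called higher and 0 lower, where 1 had an unadjusted p under 0.05 for a decrease. The third, CML41, was steady in both lots, with 126 and 132 in mock against 34.8 and 41.2 and a difference of 1.54 ± 0.15 (adjusted p = 0.000232).

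Among jasmonate genes, which are induced by wounding and chewing insects, 2 of 5 measured members were called higher and 0 lower, with 1 decrease at an unadjusted p under 0.05. JRG21, a jasmonate-induced oxygenase that inactivates the hormone by hydroxylation, had signals of 198 and 125 in mock and 16.3 and 3.7 in Landsberg erecta, a difference of 3.14 ± 0.21 (adjusted p = 3.06e-05). PDF1.2b, an antifungal defensin, had 408 and 346 against 33.3 and 21.9 and a difference of 3.38 ± 0.30. Its probe set is of the kind that can hybridise with near-identical relatives, so the signal may be shared between defensin genes. The separate probe set of PDF1.2 gave 45.1 and 59.7 against 11.5 and 30.3, a difference of 1.07 (adjusted p = 0.0554). PDF1.4, another member of the defensin family, was measured at 163 and 189 against 50 and 26.7, a difference of 1.98 ± 0.25 (adjusted p = 0.000912). The defensin family therefore had 2 of 7 measured probe sets called higher and 0 lower, with 0 decreases at an unadjusted p under 0.05, and those of PDF1A and PDF1B are peptide deformylases that share only the letters. The transcription factor MYC3, which drives jasmonate responses, had nearly equal signals in all 4 arrays, 116 and 108 against 114 and 113.

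The immunity list had 2 of 5 measured members called higher and 0 lower, with 0 decreases at an unadjusted p under 0.05. WRKY22, a transcription factor downstream of bacterial flagellin perception, had 188 and 208 in mock and 47.7 and 40.7 in Landsberg erecta, a difference of 1.94 ± 0.15 (adjusted p = 4.91e-05). BIK1, a cytoplasmic kinase that relays pattern-receptor signals, had 555 and 477 against 162 and 172, a difference of 1.57 ± 0.16. In both genes the lowest mock signal was above 2 times the highest Landsberg erecta signal. WRKY53, a factor of senescence and defence, had 24.0 and 24.6 against 25.9 and 26.3, and EFR, a receptor of a bacterial protein, was under the pseudocount on 3 of the 4 arrays (differences -0.07 and -0.13). WRKY6, another factor of leaf senescence, had 365 and 183 against 66.8 and 48.0 (difference 2.01 ± 0.22, adjusted p = 0.000335), and 2 of the 6 measured WRKY probe sets were called higher. PUB22, a U-box ubiquitin ligase that dampens immune signalling, was the single call among 9 members of its family (2 with equal medians), at 249 and 173 against 55.2 and 70.8 and a difference of 1.58 ± 0.22. The peroxidases Prx37 and PRX52, enzymes of the cell wall, were both called higher. Prx37 had 440.1 and 409 against 158 and 174 (difference 1.3 ± 0.20), and PRX52 had the dimmer signals 31.0 and 45.3 against 11.9 and 20.6 (difference 0.88 ± 0.22) and did not pass without mock replicate 1 (0.131) or 2 (0.135) or Landsberg erecta replicate 1 (0.153) or 2 (0.154), or without the lot block (0.163).

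**Figure D2:**
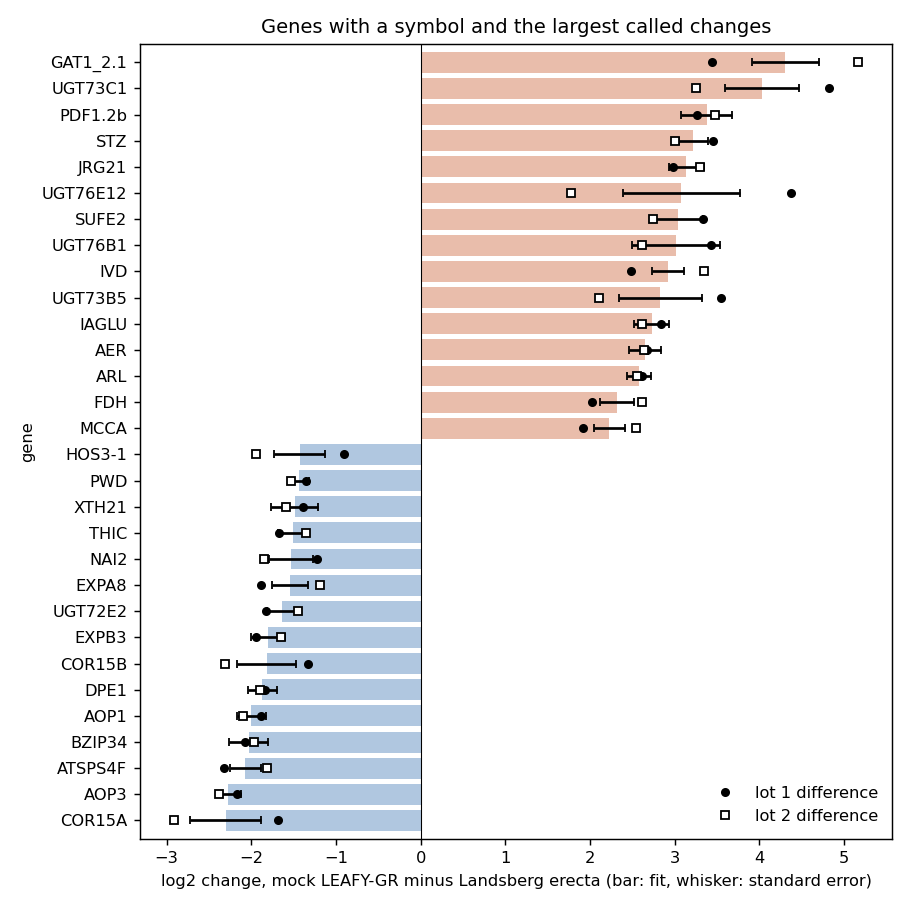
Log2 change between mock-treated LEAFY-GR and Landsberg erecta for the 15 highest and 15 lowest called genes with a symbol (bars, with the standard error of the fit as whiskers), with the difference of each lot as a point. Both lots fall on the same side of 0 because the genes were chosen to have the same direction in both. UGT76E12 and COR15A are among those whose lots lie far apart.

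Genes for the breakdown of branched-chain amino acids and their supply of electrons to mitochondria were higher together. Of the 6 measured members of the dark and sugar starvation list, 5 were called higher and 0 lower, with 0 decreases at an unadjusted p under 0.05, and the median was 1.35 log2. IVD, isovaleryl-CoA dehydrogenase of leucine breakdown, had signals of 597 and 865 in mock and 98.6 and 75.6 in Landsberg erecta, a difference of 2.92 ± 0.19 (adjusted p = 2.71e-05). The next step of leucine breakdown is carried out by methylcrotonyl-CoA carboxylase, and both of its subunits followed. MCCA had 707 and 929 against 179.9 and 151 (difference 2.23 ± 0.18). MCCB had 1299.7 and 1641 against 522 and 465 (difference 1.55 ± 0.21). ALDH6B2, the methylmalonate-semialdehyde dehydrogenase of valine breakdown, had 1376 and 1607 against 714 and 625 (difference 1.14 ± 0.15). ETFQO, which passes electrons from these dehydrogenases to ubiquinone, had 209 and 246 against 110.0 and 95.0 (difference 1.08 ± 0.16). In all 5 genes lot 2 gave the larger difference, and all 5 calls were kept in every fit that left out 1 array. D2HGDH, a dehydrogenase that feeds the same electron carrier, had 109 and 81.3 against 124 and 105, overlapping signals with a difference of -0.26.

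Other genes with a symbol and large increases had varied roles. GAT1_2.1, a glutamine amidotransferase-type protein, had the largest difference of any gene with a symbol, with 648 and 769 in mock against 50.4 and 11.7 in Landsberg erecta (4.31 ± 0.40 log2, adjusted p = 0.000137). The Landsberg erecta arrays themselves differed about 4-fold here, so the size is less certain than the direction. FDH, formate dehydrogenase, had 2303 and 3043 against 559.8 and 489.5 (difference 2.32 ± 0.20). ALDH7B4, an aldehyde dehydrogenase induced by dehydration, had 1480.3 and 1804 against 544 and 472 (difference 1.67 ± 0.14). Among the 8 aldehyde dehydrogenases 2 were called higher and 1 lower, the latter being ALDH2C4 of ferulate synthesis, at 1106 and 1114 against 1616 and 1620.5. Its difference of -0.54 did not pass when arrays were scaled to equal medians (adjusted p = 0.194), nor without mock replicate 1 (0.153) or 2 (0.158) or Landsberg erecta replicate 1 (0.171) or 2 (0.201). AER, a reductase that detoxifies reactive carbonyls from oxidised lipids, had 2418 and 1993 against 373 and 312 (difference 2.65 ± 0.19, adjusted p = 3.94e-05). SUFE2, an activator of sulfur transfer for iron-sulfur clusters, had 386 and 190.3 against 29.2 and 19.9 (difference 3.04 ± 0.29). ARL, a growth regulator that promotes cell expansion, had nearly identical values within each group, 943 and 889.5 against 146 and 143 (difference 2.58 ± 0.14, adjusted p = 1.74e-05).

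The UDP-glycosyltransferases attach sugars to hormones, phenolics and foreign compounds. Of 47 measured probe sets 9 were called higher and 4 lower, against 4.77% and 5.2% of all tested, and the family median was 0.22 log2. With equal medians the counts became 12 and 2. UGT73C1, which glucosylates cytokinins and xenobiotics, was near the floor in Landsberg erecta, with 306 and 97.4 in mock and 1.2 and 1.3 there (difference 4.03 ± 0.44, adjusted p = 0.000336). UGT87A2, a regulator of flowering time, had 901 and 536 against 178 and 139 (difference 2.07 ± 0.25), UGT84A3 of hydroxycinnamate esters had 336 and 339 against 100.5 and 120.0 (difference 1.54 ± 0.23), and UGT73B1 had 317 and 260.2 against 124 and 101 (difference 1.29 ± 0.19). These calls were kept in every fit that left out 1 array. Large differences with unequal lots were measured at UGT76B1, a glucosyltransferase of defence signals, with 770.1 and 311 against 62.5 and 42.2 (difference 3.02 ± 0.52), which did not pass without mock replicate 1 (0.0626) or Landsberg erecta replicate 2 (0.0555). UGT73B5 had 513 and 171 against 34.6 and 31.9 (difference 2.83 ± 0.49) and did not pass without mock replicate 1 (0.0639) or Landsberg erecta replicate 1 (0.0625). UGT76E12 had 361 and 69.6 against 7.8 and 13.1 (difference 3.08 ± 0.69) and did not pass without mock replicate 1 (0.153) or Landsberg erecta replicate 1 (0.146) or 2 (0.0691). In all 3 the mock array of lot 1 was more than 2 times that of lot 2, yet the groups did not overlap. IAGLU, a related enzyme that esterifies the auxin indole-3-acetic acid, had 1138 and 1228 against 150.4 and 192 (difference 2.73 ± 0.21). The lowest family member was UGT72E2, which glucosylates lignin precursors, at 76.6 and 90.3 against 298 and 264 (difference -1.64 ± 0.17, adjusted p = 0.000303).

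**Figure D3:**
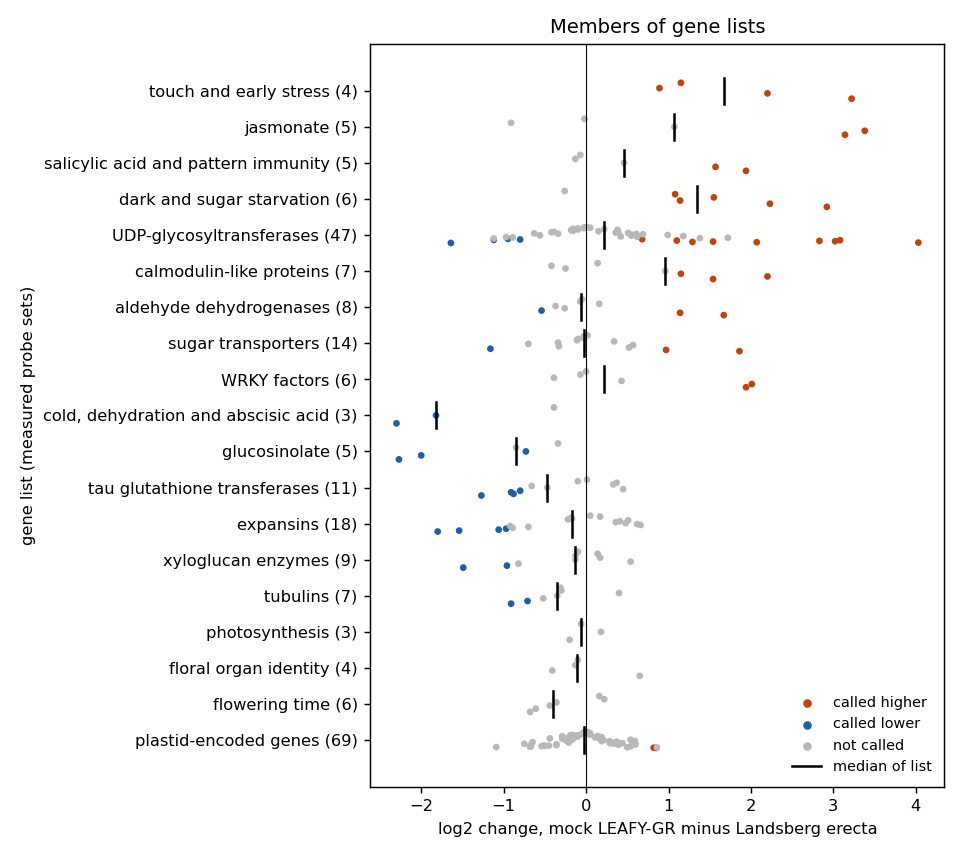
Log2 change of every measured member of 19 gene lists (horizontal axis; number of probe sets in brackets), coloured by call, with the list median as a bar. Members of the touch and early stress list all lie right of 0, while those of the glucosinolate and cold lists all lie left of it.

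The lower genes included both cold-regulated COR15 genes, which code for small plastid proteins that protect membranes during freezing. COR15A had signals of 53.6 and 21.4 in mock and 193 and 227 in Landsberg erecta, the lowest change of any gene with a symbol (-2.30 ± 0.42 log2, adjusted p = 0.0071). COR15B had 150.0 and 79.0 against 391 and 431 (difference -1.82 ± 0.35). The groups did not overlap for either gene, and lot 2 gave the larger difference in both. COR15A did not pass without mock replicate 2 (0.0762) or Landsberg erecta replicate 2 (0.0849), nor COR15B without mock replicate 2 (0.0875) or Landsberg erecta replicate 2 (0.107). COR47, a dehydrin and the third measured member of the cold, dehydration and abscisic acid list, had 2037 and 1823 against 2660.5 and 2406, a difference of -0.39 (adjusted p = 0.224).

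Glucosinolates are the sulfur-rich defence compounds of the cabbage family, and 3 of 5 measured genes of their synthesis were called lower and 0 higher, with 0 increases at an unadjusted p under 0.05. AOP3, an oxygenase that forms hydroxyalkyl glucosinolates and is known to be expressed in some accessions and not in others, had 354 and 299 in mock against 1624 and 1602 in Landsberg erecta (difference -2.27 ± 0.15, adjusted p = 2.36e-05). AOP1, its neighbour in the same gene cluster, had 53.7 and 53.2 against 226 and 261 (difference -2.0 ± 0.17). For both genes the groups lay far apart, with similar signals within each. BCAT4, which starts the chain elongation of methionine for this pathway, had 1078 and 829.9 against 1531 and 1614 (difference -0.73 ± 0.13) and did not pass without mock replicate 2 (0.0648) or Landsberg erecta replicate 2 (0.0839). NAI2, needed for the endoplasmic reticulum bodies that store a glucosinolate-cleaving enzyme, was also lower, at 376 and 219.9 against 888 and 818 (difference -1.53 ± 0.26), and did not pass without mock replicate 2 (0.0567) or Landsberg erecta replicate 2 (0.0691).

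Among the lowest genes with a symbol, PWD, DPE1 and ATSPS4F work in starch breakdown or sucrose synthesis, for which no list was tested. PWD, a kinase that phosphorylates starch so that it can be degraded, had 273 and 244 against 715 and 725 (difference -1.44 ± 0.12, adjusted p = 7.51e-05). DPE1, the plastid enzyme that rearranges short maltose chains during starch breakdown, had 60.1 and 58.1 against 242 and 244 (difference -1.87 ± 0.17, adjusted p = 0.000107). ATSPS4F, a sucrose-phosphate synthase of leaves, had 78.7 and 114 against 432 and 426 (difference -2.07 ± 0.18). For each of these the mock signals were below both Landsberg erecta signals by more than 2-fold. Of the 14 measured sugar transporters 2 were called higher (3 with equal medians) and 1 lower. SWEET2, which moves sugars into the vacuole, had 690.1 and 793 against 209 and 186 (difference 1.86 ± 0.18), and SWEET1 had 849 and 886 against 441 and 432 (difference 0.97 ± 0.13). SWEET17, a vacuolar fructose transporter, was lower, at 199.8 and 128 against 409.6 and 336 (difference -1.16 ± 0.18). THIC, which makes the pyrimidine ring of thiamin, had 664 and 738 against 2138 and 1899.6 (difference -1.51 ± 0.17).

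Genes of cell wall loosening and of the cytoskeleton were lower where they were called. Of 18 expansins, proteins that loosen the wall as cells expand, 4 were called lower and 0 higher, with 1 increase at an unadjusted p under 0.05. EXPB3 had 76.5 and 82.4 in mock against 323 and 279 in Landsberg erecta (difference -1.80 ± 0.20), and EXPA8 had 122 and 197 against 480.3 and 463 (difference -1.54 ± 0.21), and both calls were kept in every fit that left out 1 array. EXPA15 had 178 and 147 against 350.4 and 345 (difference -1.06) and did not pass without mock replicate 2 (0.0796) or Landsberg erecta replicate 1 (0.0736). EXPA4 had 87.7 and 118 against 249 and 175 (difference -0.97) and did not pass without mock replicate 1 (0.136) or Landsberg erecta replicate 1 (0.168), or with equal medians (0.0689). The family median was -0.18, and 8 of the 18 differences were above 0. Among 9 xyloglucan enzymes, which cut and rejoin wall polymers, 2 were called lower and 0 higher, with 0 increases at an unadjusted p under 0.05, and the median moved from -0.13 to 0.01 with equal medians. XTH21 had 7.8 and 7.3 against 36.6 and 42.1 (difference -1.49 ± 0.28) and did not pass without mock replicate 1 (0.057) or 2 (0.0526) or Landsberg erecta replicate 2 (0.0795). XTH32 had 189 and 178 against 403 and 331 (difference -0.96 ± 0.27, adjusted p = 0.0493) and was lost without any single array (0.0718 to 0.31), without the lot block (0.0623) and with equal medians (0.111). Of 7 tubulins 2 were called lower and 0 higher, with 0 increases at an unadjusted p under 0.05. TUA6 had 1308 and 1210.1 against 2459 and 2298 (difference -0.91 ± 0.16) and did not pass without Landsberg erecta replicate 2 (0.062). TUB5 had 562 and 655 against 996 and 1001 (difference -0.71 ± 0.15) and did not pass without mock replicate 1 (0.107) or Landsberg erecta replicate 1 (0.0877) or 2 (0.0932), or with equal medians (0.107). TUA1 alone of the 7 had a difference above 0, 0.40 (adjusted p = 0.231).

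The tau glutathione transferases, which conjugate toxic compounds, had 4 of 11 probe sets called lower and 0 higher, with 1 increase at an unadjusted p under 0.05. GSTU28 had 18.6 and 21.8 against 61.4 and 64.4 (difference -1.27 ± 0.26), GSTU18 had 139.9 and 190.4 against 326 and 304, GSTU20 had 1331 and 872 against 2119.9 and 1871, and GSTU27 had 249.9 and 299 against 491 and 477. The differences of the last 3 were -0.91, -0.88 and -0.80 log2. None of these 4 calls was kept in all 4 fits that left out 1 array (adjusted p up to 0.257), and with equal medians GSTU28 alone passed. Among 24 cytochrome P450 probe sets 1 was called higher and 2 lower, against 4.77% and 5.2% of all tested. The probe set named CYP71 there belongs by symbol only. CYP71B23 had 113 and 92.0 against 54.8 and 65.1 (difference 0.69) and did not pass without mock replicate 1 (0.219) or 2 (0.0831) or Landsberg erecta replicate 1 (0.252) or 2 (0.086). CYP71B34 had 126 and 97.1 against 203 and 197 (difference -0.80) and did not pass without mock replicate 2 (0.127) or Landsberg erecta replicate 1 (0.0747) or 2 (0.144). CYP71B28 had 74.9 and 73.6 against 154 and 153 (difference -0.96) and did not pass without mock replicate 1 (0.0947) or 2 (0.211) or Landsberg erecta replicate 1 (0.214) or 2 (0.129), without the lot block (0.0568) or with equal medians (0.0738). BGLU44, a β-glucosidase, was the 1 called member of 20 in its family, with 459.7 and 365 against 879 and 834 (difference -1.05 ± 0.24), and did not pass without mock replicate 1 (0.0864) or 2 (0.141) or Landsberg erecta replicate 1 (0.0908) or 2 (0.154), or with equal medians (0.0761). The trichome birefringence-like proteins, which acetylate wall polymers, had 1 of 22 called higher and 1 lower, against the same overall shares of 4.77% and 5.2%. TBL37 had 551 and 407 against 181 and 141 (difference 1.51 ± 0.16). TBL30 had 24.3 and 13.3 against 60.2 and 69.8 (difference -1.40 ± 0.32) and did not pass without mock replicate 2 (0.163) or Landsberg erecta replicate 1 (0.0697) or 2 (0.169).

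Further lower genes with a symbol had other roles. BZIP34, a leucine-zipper transcription factor known from pollen, was below the pseudocount in mock, with 6.7 and 8.5 against 60.7 and 62.4 (difference -2.03 ± 0.23, adjusted p = 0.000457), so the size of its change depends on the pseudocount. HOS3-1, a member of the fatty acid elongation family, had 14.2 and 7.2 against 35.2 and 56.4 (difference -1.43 ± 0.30) and did not pass without mock replicate 1 (0.0538) or 2 (0.118) or Landsberg erecta replicate 2 (0.163).

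The other hormone lists gave few calls. Of 8 auxin response genes 1 was called higher and 1 lower, against 4.77% and 5.2% of all tested probe sets. WES1, which links auxin to amino acids and so inactivates it, had 263 and 347 in mock against 157 and 152 in Landsberg erecta (difference 0.92 ± 0.16) and did not pass without mock replicate 2 (0.0644) or Landsberg erecta replicate 2 (0.06). IAA29, a repressor of auxin response, had 24.3 and 25.5 against 59.6 and 78.8 (difference -1.17 ± 0.26) and did not pass without mock replicate 1 (0.0595) or 2 (0.139) or Landsberg erecta replicate 1 (0.0992) or 2 (0.131). It was also the single call among the 7 IAA probe sets found by symbol. GID1B, a gibberellin receptor, had 83.4 and 103 against 34.3 and 41.0 (difference 1.11 ± 0.20) and did not pass without Landsberg erecta replicate 2 (0.058), while the related receptors GID1A and GID1C differed by -0.25 and 0.38 (adjusted p = 0.47 and 0.428). EIN3, the main transcription factor of ethylene response, had 551 and 586 against 409.9 and 314 (difference 0.65 ± 0.14) and did not pass without mock replicate 2 (0.147) or Landsberg erecta replicate 2 (0.184). Among 3 low oxygen genes PDC2, pyruvate decarboxylase of fermentation, was called higher at 629 and 584 against 349 and 453 (difference 0.60 ± 0.15). It did not pass without mock replicate 1 or Landsberg erecta replicate 1 or 2. Nor did it pass without the lot block (0.0692) or with quantile normalisation. The other measured members, AT3G10040 and AT4G17260, differed by -0.99 and -0.29 (adjusted p = 0.153 and 0.327 by limma). In this list 1 decrease had an unadjusted p under 0.05.

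Few floral genes were measured, and none was called. limma called 0 of 4 floral organ identity genes and 0 of 6 flowering time genes, with 0 and 1 at an unadjusted p under 0.05. Over all tested probe sets 4.77% were called higher and 5.2% lower. In lists this small, 0 calls do not show that floral genes were unchanged. SPL and AGL24 were under the pseudocount on all 4 arrays. UFO, a partner of LEAFY in petal and stamen formation, had 3.0 and 21.8 in mock and 2.2 and 3.8 in Landsberg erecta, near the floor apart from the mock array of lot 2 (adjusted p = 0.454). AGL42, a MADS-box gene of the flowering pathway, had 9.2 and 13.2 against 25.6 and 22.2 (difference -0.68, adjusted p = 0.195). GI, the 1 measured clock gene of 21 listed, had similar signals, 290.2 and 354 against 282 and 289 (difference 0.16 ± 0.15, adjusted p = 0.598). A difference in the time of day at sampling was not tested.

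The leaf mesophyll markers LHCB4.1 and RCA, both photosynthesis genes, were bright in both groups, as in green tissue. LHCB4.1, a light-harvesting protein, had 5388 and 7420.3 in mock against 7281 and 7274 in Landsberg erecta, and RCA, the activator of Rubisco, had 5696 and 8377 against 6939.5 and 7451. Of 3 photosynthesis genes limma called 0, and 0 had an unadjusted p under 0.05. The summed signal of the 2 root markers was 97.0 and 123.5 in mock against 178.2 and 224.4 in Landsberg erecta. EXPA7, an expansin of root hairs, had 45.2 and 37.6 against 75.1 and 95.8 (difference -0.89, adjusted p = 0.0718). Neither root marker was called, both had an unadjusted p under 0.05, and their part in the lower cell wall genes was not tested. The vascular marker SWEET11 had 1188 and 1634 against 974 and 964 (difference 0.52, adjusted p = 0.0702) and passed with equal medians (0.0359) and in no other setting. MUTE, which makes stomatal precursor cells turn into guard mother cells, was called lower, with 3.1 and 1.7 against 15.9 and 19.2 (difference -1.15 ± 0.21). These signals lie around the pseudocount, and the call was lost without mock replicate 2 (0.0671) or Landsberg erecta replicate 2 (0.0811). The related stomatal genes SPCH and FMA differed by 0.63 and -0.04 (adjusted p = 0.249 and 0.954). Markers of trichomes (TRY, -0.11), shoot meristem (LAS, 0.03, and CLV3, 0.03) and pollen (AtVEX1, -1.21, and AMS, -0.21) had 0 calls and 0 unadjusted p under 0.05, and CLV3 was under 10 on all 4 arrays.

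Plastid-encoded genes had few calls, with 2 of 69 probe sets higher and 0 lower, against 4.77% and 5.2% of all tested. Of the 69, 9 had an unadjusted p under 0.05 for a decrease. psbE, a subunit of photosystem II, had 2145 and 1992 against 1096 and 1184 (difference 0.85 ± 0.13, adjusted p = 0.00244). psbT, a small subunit of the same complex, had 608 and 676 against 329 and 392 (difference 0.82 ± 0.19) and did not pass without mock replicate 1 (0.177) or 2 (0.0502) or Landsberg erecta replicate 1 (0.0757) or 2 (0.2), or without the lot block (0.138). With equal medians 5 of the 69 were called higher.

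Lists with a few measured members and 0 calls by limma are given by the member with the smallest p. PYE, a factor of iron deficiency, differed by -0.40, and 1 of its 2 list members had an unadjusted p under 0.05 for a decrease. The heat shock gene ATHSP22.0 differed by 0.63 and Hsp70-2 by 1.12 (adjusted p = 0.114), the latter from 579 and 226 against 151 and 172. In the heat shock protein family Hsp70-2 was the single member and had an unadjusted p under 0.05, while the heat shock list had 0 of 2. The flavonoid gene AT4G14090 differed by 0.12, the cytokinin response gene RR16 by -0.18 and the chaperone gene CRT1b by -0.01, with 0 unadjusted p under 0.05 in their lists. JAL22, a jacalin-related lectin, differed by -0.72 and was the 1 of 4 with an unadjusted p under 0.05. The nitrate transporter NRT2.5 (0.38) and NAC014 (-0.06) were the single members of their families. PIP and CRK, found by symbol for the aquaporins and the receptor-like kinases, are a peptidase and a subunit of an actin regulator, and differed by -0.02 and -0.37.

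Many of the largest differences were at loci known here by code only. AT2G38240 had 837 and 228 in mock against 6.6 and 11.8 in Landsberg erecta (difference 4.56 ± 0.47). AT2G43620 had 711 and 1211 against 53.5 and 44.5 (difference 4.0 ± 0.43), and AT4G01870 was both large and bright, at 5484 and 5949 against 468 and 368 (difference 3.75 ± 0.17, adjusted p = 1.14e-05). In each, the mock signals exceeded those of Landsberg erecta by more than 10-fold in both lots. AT2G22880 (3.77), AT2G39980 (3.52), AT3G16530 (3.50) and AT4G22470 (3.36) followed. AT1G10585 had 983 and 155 against 12.4 and 17.2 (difference 4.04 ± 0.68) and did not pass without mock replicate 1 (0.053) or Landsberg erecta replicate 1 (0.0549). The lowest was AT4G30650, at 108 and 44.9 against 1064 and 1281 (difference -3.87 ± 0.57), and its chromosomal neighbour AT4G30660 had 124 and 111 against 970.5 and 1162 (difference -3.08 ± 0.21). AT4G34950 had 136 and 63.1 against 970.1 and 925 (difference -3.21 ± 0.20). AT1G19960 (-2.99), AT1G07050 (-2.74), AT3G22620 (-2.62), AT1G73600 (-2.41) and AT1G60590 (-2.35) were the other loci of this kind. For each of these 8 lower loci both mock signals were below both Landsberg erecta signals.

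Some of the largest differences were at probe sets with no named gene here. The highest of the whole table, 266364_at, had 984 and 890.4 in mock and 12 and 12.9 in Landsberg erecta, a difference of 5.40 ± 0.17 log2 (adjusted p = 7.35e-07). The probe set 263403_at had 713 and 354 against 17.3 and 20.2 (difference 4.16 ± 0.33). On the lower side were 248337_at, with 56.8 and 23.9 against 523 and 466 (difference -3.40 ± 0.29), and 248844_s_at, with 72.7 and 123 against 897 and 908 (difference -3.12 ± 0.23). The suffix of the last marks probes shared by several transcripts.

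The 5 brightest called genes of each direction included AT4G01870, given above. AT3G15450 had 4529 and 6321 against 1728 and 1503 (difference 1.73 ± 0.20) and AT1G23390 had 2161 and 2938 against 1152 and 1060.2 (difference 1.18 ± 0.15), and both were kept in every fit that left out 1 array. SAMDC, the decarboxylase that supplies polyamine synthesis, had 5635 and 7072 against 3492 and 3544 (difference 0.84 ± 0.19) and did not pass without mock replicate 1 (0.0673) or 2 (0.138) or Landsberg erecta replicate 1 (0.0989) or 2 (0.2). AT3G51730 had 2519 and 3138 against 1656 and 1704 (difference 0.74 ± 0.17) and did not pass without mock replicate 1 (0.0584) or 2 (0.148) or Landsberg erecta replicate 1 (0.0893) or 2 (0.16). On the lower side AT4G16980 had 1416 and 2249 against 4102 and 4220.5 (difference -1.22 ± 0.19) and was kept in every such fit. MT1C, a metallothionein that binds metal ions, had 3378 and 2946 against 4660.4 and 5292 (difference -0.65) and did not pass without mock replicate 2 (0.197) or Landsberg erecta replicate 1 (0.0927) or 2 (0.214), or with equal medians (0.132). AT1G13930 (-1.27), AT4G23670 (-1.28) and AT1G09310 (-1.11) lost their calls in 3 or 4 of the 4 such fits, with adjusted p up to 0.308, 0.117 and 0.09. With equal medians AT1G13930 (0.11) and AT1G09310 (0.0551) did not pass, and AT1G13930 was also lost without the lot block (0.072).

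Calls were compared with chromosomal position. The called loci were spread over the 5 chromosomes, with 3.11% to 4.14% of loci higher and 3.99% to 5.32% lower on each. Measured neighbours of a gene called higher were themselves called higher in 40 of 494 cases (8.1%, against 4.22% of all measured neighbours), and neighbours of a gene called lower were called lower in 52 of 601 cases (8.65%, against 5.14%). These shares are a description, and the part of gene copies was not tested. Runs of at least 3 adjacent genes were few. AT4G15680, AT4G15690 and AT4G15700 had differences of 1.65, 2.30 and 1.94, the last from 56.7 and 83.3 in mock against 14 and 7.5 in Landsberg erecta. SD1-29, a receptor-like kinase of the S-domain family, had 295 and 208 against 72.3 and 61.0 (difference 1.75 ± 0.19) and stood beside AT1G61360 (0.56) and AT1G61370 (1.09). On the lower side 4 genes from AT1G51080 to AT1G51110 ran together, with differences of -2.05 at AT1G51080, -1.92 at AT1G51090, -0.89 and -0.84 at the 2 probe sets of AT1G51110, and -1.08 at CRR41, a protein needed to build the chloroplast NADH dehydrogenase-like complex. AT1G07050 formed another run with DFO, a gene of meiotic recombination (-1.25), and AT1G07070 (-0.70). Apart from AT1G07050, the members of these runs were picked with their values in view.

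A set of 10 genes with a symbol, 5 in each direction, was followed over all 12 arrays. They had the smallest p-values among the called genes with a symbol that the rule for named genes took. Other called genes with a symbol were not searched for this. They were chosen for their difference between mock and Landsberg erecta, so their levels elsewhere are a description. Every treated group was LEAFY-GR and neither untreated group was, so treatment and genotype cannot be told apart in what follows. STZ had 83.7 and 75.2 in untreated 35S::LFY, 977 and 766 after dexamethasone and 7161 and 8824 after cycloheximide, an inhibitor of protein synthesis, so the treated groups all lay above both untreated ones. ARL had 103 and 123 in 35S::LFY, 632 and 548 with dexamethasone and 1962 and 2296 with cycloheximide, in the same order of untreated and treated groups. JRG21 had 25.0 and 17.9 in 35S::LFY, 78.1 and 58.5 with dexamethasone and 462 and 407 with cycloheximide. IVD differed in this, because its level was high after mock and dexamethasone (591 and 593) but low both in 35S::LFY (91.4 and 80.2) and after cycloheximide (49.2 and 56.4). AER lay between, with 450.3 and 490.1 in 35S::LFY, 2596 and 1956 with dexamethasone and 942 and 536 with cycloheximide.

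The 5 lower genes were higher in both untreated groups than in any treated LEAFY-GR group. PWD had 745 and 794 in 35S::LFY, slightly above its Landsberg erecta level, 256 and 266 with dexamethasone and 185 and 212 with cycloheximide. DPE1 had 254 and 244 in 35S::LFY, 69.1 and 64.5 with dexamethasone and 43.6 and 35.0 with cycloheximide. AOP1 had 255 and 239.8, 75.8 and 73.0 and 40.0 and 34.0 in the same groups. AOP3 had 1188 and 1132 in 35S::LFY, below Landsberg erecta and above every treated group, 57.1 and 35.9 with cycloheximide and 42.6 and 34.5 with dexamethasone and cycloheximide. ATSPS4F lay in the same order, with 270.5 and 259 in 35S::LFY, 25.9 and 29.9 with cycloheximide and 24.0 and 25.0 with both.

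**Figure D4:**
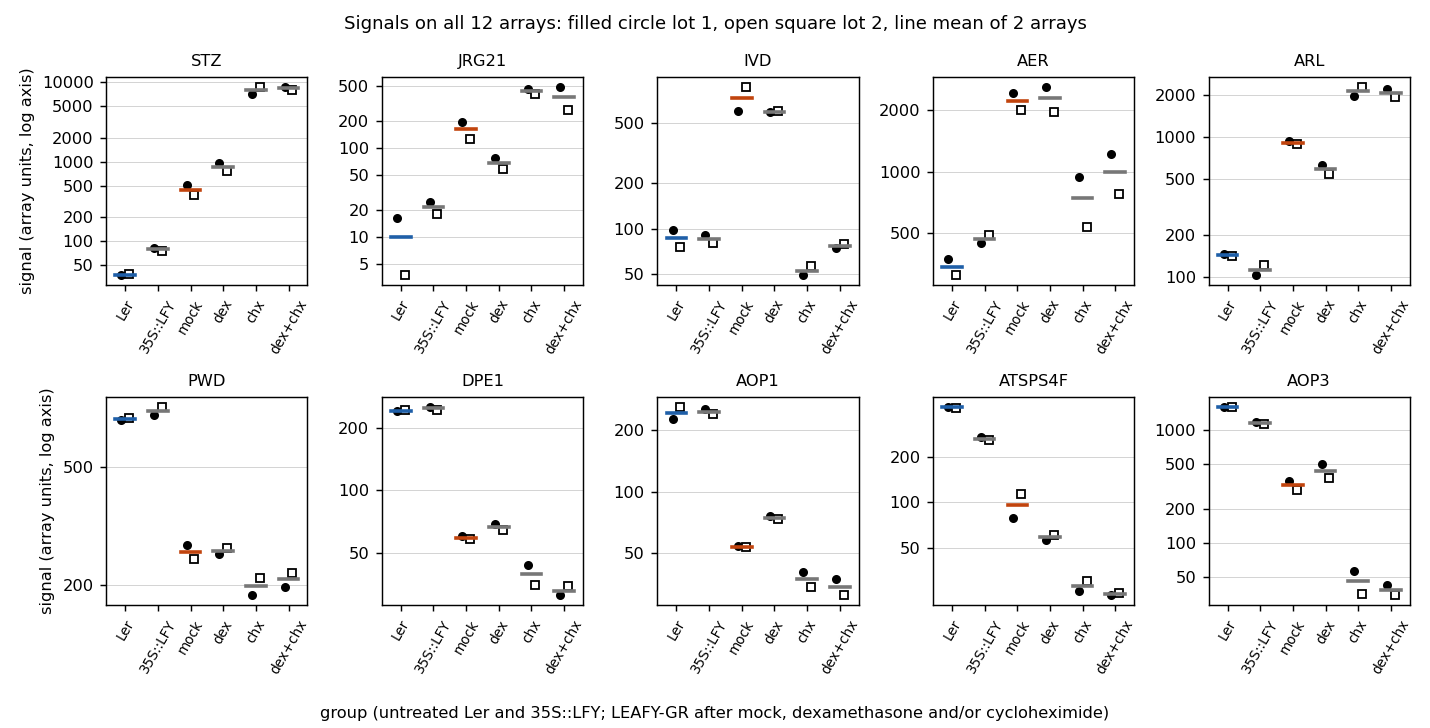
Signals (log axis) of the 10 genes in the 6 groups, with a point for each array and a line at the mean of 2 arrays. In every panel the untreated Landsberg erecta and 35S::LFY arrays lie together on the side away from the mock and dexamethasone arrays.

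Counts over all probe sets differed among the comparisons. Untreated 35S::LFY and Landsberg erecta differed at 72 probe sets (0.317% of 22746), 39 higher and 33 lower, whereas mock-treated LEAFY-GR differed from 35S::LFY at 2288 (10.1%). These comparisons share arrays with the main one, so their lists are not set against it. A comparison of the same kind that shares no array with it is dexamethasone-treated LEAFY-GR against 35S::LFY. It gave 1445 probe sets higher (6.35%) and 1417 lower (6.23%). All these fits share the spread estimated over the 12 arrays, and the comparisons share the lots.

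Of the 1085 probe sets higher in mock than in Landsberg erecta, 782 were also called higher with dexamethasone than in 35S::LFY, 72.1% of the former list and 54.1% of the latter, and 5 were called the opposite way. Of the 1182 lower, 691 were also called lower, 58.5% and 48.8% of the lists, and 3 were called the opposite way. The same sign was measured for 96.2% of the higher and 95% of the lower probe sets, against 55.5% and 44.5% of all tested. Among the 105 named probe sets that passed in the main comparison, 81 passed in the same direction here. STZ differed by 3.29, IVD by 2.65, MCCA by 2.17 and UGT73C1 by 3.73 log2 in this comparison. COR15A differed by -2.55, AOP3 by -1.39, DPE1 by -1.75 and EXPB3 by -2.47, and all 8 passed in it as well. Genes that passed in the main comparison and not here included PDF1.2b (1.00, adjusted p = 0.0577), PDF1.4 (0.06, adjusted p = 0.915) and MUTE (-0.56, adjusted p = 0.118). Whether such differences differ between the comparisons was tested directly, with 1 contrast of the 4 groups, in the fit as reported only. By this test limma called 28 probe sets (0.123%). None of these 3 genes was among them, with adjusted p of 0.1, 0.112 and 0.588.

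**Figure D5:**
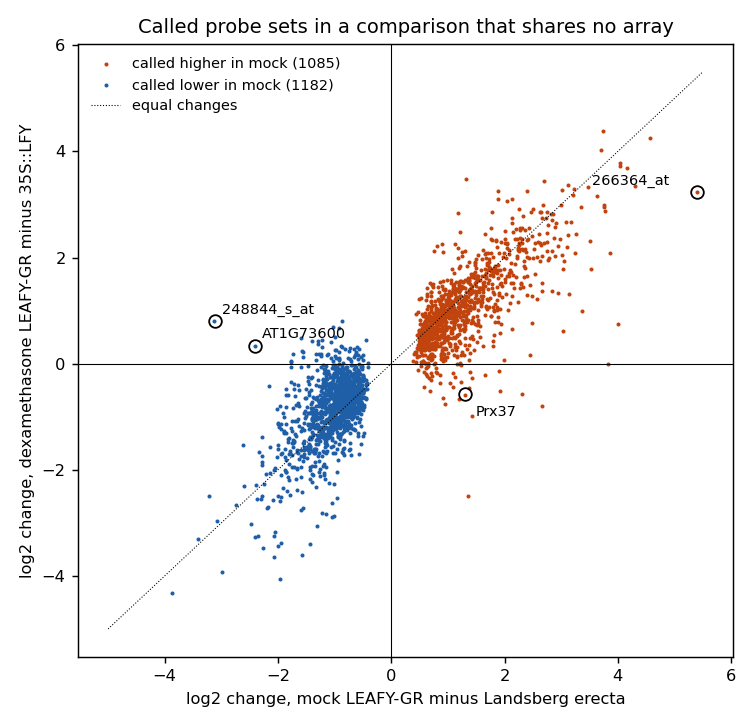
Log2 change of dexamethasone-treated LEAFY-GR against 35S::LFY (vertical axis) for the 2267 probe sets called between mock-treated LEAFY-GR and Landsberg erecta (horizontal axis), with a dotted line at equal changes. Most points lie in the quadrants of equal sign, and the 4 circled named probe sets passed the test of the difference between the comparisons.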

How the data were processed

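Total RNA of 12 seedling samples was measured on single-colour arrays. The authors deposited 1 linear intensity per probe set and array, with the software not given in the sources used here. With 2% trimmed at both tails, the arrays' means ran from 150.01 to 150.02, within the 5% allowed, and no further scaling was applied. Intensities as deposited were converted to log2(intensity + 10), and the 64 control probe sets were left out. A limma model (version 3.58.1, under R 4.3.3) with group means and the lot as a block was fitted to all 12 arrays, with an intensity trend, 5 residual and 5 prior degrees of freedom, and Benjamini-Hochberg adjustment over 22746 probe sets (called at adjusted p under 0.05). The fit was tested on simulated data. The number of arrays limits the precision.

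The labels give the lot as a batch number without saying what its arrays shared, and this number was used to pair the arrays. Deviations from group means of same-lot arrays correlated at 0.05 to 0.33 over the 15 pairs of groups (median 0.14, 12 over 0.1). For mock and Landsberg erecta, the pair compared here, the correlation was 0.07.

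Through the array's annotation and RefSeq names (assembly TAIR10.1), 13484 tested probe sets had 1 locus, 1551 of them a symbol, and 9262 stay unnamed here. Of 410 entries in 31 gene lists 79 were measured; families were found by symbol. Phosphate, nitrate, brassinosteroid, LEAFY target and seed storage lists, and several families, had no measured member. The members and lists were chosen with earlier results of these data known; the plastid list by chromosome, the tau glutathione transferases and the contrast of comparisons were added after seeing the data.

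The rule for named genes took the 15 highest and 15 lowest called changes with a symbol and the same direction in both lots, the 8 and 8 with a locus code only, up to 6 called members of each list (or the smallest p), the 5 brightest called in each direction, and unnamed probe sets among the 5 largest changes either way. Other list members given beside them were added after their values were seen. Alternatives were pseudocounts of 5 and 32, a filter at a mean signal of 50, equal medians, quantile normalisation, no lot block, no trend, the 4 arrays alone, single lots and leaving out each array; where an arm is left with 1 array, it is assumed to vary like the other groups. Promoter motifs and families by product description were planned and not analysed here. Summaries and plots used pandas 2.3.3, matplotlib 3.10.9 and numpy 2.4.6 under Python 3.11.15.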

Additional observations from a re-analysis of the deposited data

Results flagged for a closer look

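For 4 of the named probe sets the difference between mock-treated LEAFY-GR and Landsberg erecta was not the same as that between dexamethasone-treated LEAFY-GR and 35S::LFY, by limma's test of 1 contrast of the 4 groups. AT1G73600 had 147 and 126 in mock and 763 and 768 in Landsberg erecta, but 732 and 1032 after dexamethasone and 626 and 752 in 35S::LFY, a gap of -2.74 ± 0.29 log2 (adjusted p = 0.009). Among these 4 groups the mock arrays alone were low at this locus. Outside them it was also low, with 35.7 and 32.7 after cycloheximide and 119 and 199 after dexamethasone and cycloheximide. The probe set 248844_s_at had 72.7 and 123 in mock, 897 and 908 in Landsberg erecta, 345 and 391 after dexamethasone and 163 and 259.9 in 35S::LFY, a gap of -3.93 ± 0.32 (adjusted p = 0.00262). Here Landsberg erecta stood above the other 3 groups, 35S::LFY included (-2.08 against Landsberg erecta, adjusted p = 0.00685). The unnamed 266364_at had 338 and 355 after dexamethasone and 24.6 and 31.5 in 35S::LFY, so it was higher in both comparisons and more so with mock, by 2.17 ± 0.25 (adjusted p = 0.0124). The peroxidase gene Prx37 had 159 and 225 after dexamethasone and 291 and 285 in 35S::LFY, against 440.1 and 409 in mock and 158 and 174 in Landsberg erecta, a gap of 1.89 ± 0.29 (adjusted p = 0.0499). It lay just under the threshold. This contrast was fitted in 1 setting only, so no alternative fit checked these calls. AT1G73600, 248844_s_at and 266364_at were named for their large mock difference, and such a choice can enlarge the gap.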

How the results depend on the processing

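Of the 105 named calls, 63 were kept in all 12 alternative fits and 15 were lost in each of the 4 fits that left out 1 array, and 0 changed direction. Without a replicate block for the lot the comparison of mock with Landsberg erecta gave 1779 calls, 910 higher and 869 lower, 1778 of them shared with the fit as reported, and 8 named calls were lost. The 4 arrays alone gave 1317, with 670 higher and 647 lower, and equal medians left 589 lower. Of the named calls, 21 were lost with the 4 arrays alone, CML38, GID1B, BCAT4, MUTE, EIN3 and TBL30 among them. Without the trend 15 named calls were lost, with equal medians 12 and with quantile normalisation 3. The pseudocount of 5 lost 3 and that of 32 lost 1. Leaving out 1 array gave 906 to 1213 calls, 566 to 707 higher and 340 to 562 lower. For dexamethasone against 35S::LFY the 4 arrays alone gave 1456 and leaving out 1 array 1386 to 1687, and for mock against 35S::LFY 1104 and 1037 to 1245. For 35S::LFY against Landsberg erecta the counts were 226 with the 4 arrays alone, 117 with the filter, 38 without the trend and 1 to 4 without 1 array. Fewer arrays entered the fits of 4 arrays and those without 1 array, and the cause of the other shifts was not tested. Genes that had not passed changed sign in some settings. With equal medians these were CRT1b (0.18), NAC014 (0.10), PIP (0.16) and TRY (0.04), and with quantile normalisation NAC014 (0.11), PIP (0.09), RR16 (0.00) and TRY (0.06). Leaving out 1 array gave ranges through 0 for AT4G14090 (-0.18 to 0.41), ATHSP22.0 (-0.65 to 1.91), CRT1b (-0.13 to 0.11), LAS (-0.15 to 0.21), LHCB4.1 (-0.44 to 0.03), NAC014 (-0.29 to 0.17), PIP (-0.15 to 0.11), RR16 (-0.62 to 0.26), TRY (-0.23 to 0.01) and UFO (-0.04 to 1.33). Signals near the pseudocount of 10 limit the size of changes at dim probe sets, where the share of calls was 1.85% in the lowest of 4 signal bins.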
